A study of Mus musculus with 3 samples.

Results

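Array signal was measured for 10 genes that take a fatty acid from its binding in the cytosol to its oxidation, in mouse astrocytes made from embryonic stem (ES) cells. They are the fatty acid binding protein genes Fabp7, Fabp5 and Fabp3, the acyl-CoA synthetase genes Acsbg1, Acsl3 and Acsl6, the carnitine palmitoyltransferase genes Cpt1a and Cpt2, and the acyl-CoA dehydrogenase genes Acadm and Acadl. A probe set, the group of short probes that stands for a transcript on the array, was taken for a gene when the platform annotation tied it to that gene and to no other. All 10 genes were measured, among 18194 with a value, and they had 19 of the 34958 probe sets tied to 1 gene. A gene took the values of its probe set with the highest mean, and the rest are given as well.

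The study has 1 group, wild-type ES-derived astrocytes, on 3 Affymetrix Mouse Genome 430 2.0 arrays with 1 colour. ES cells were grown as embryoid bodies for 4 days, selected for 5 to 7 days, and kept as neural precursors in FGF2 and a factor that the labels write as EGF2. At 18 passages from the embryoid bodies, these growth factors were withdrawn and 5% fetal bovine serum was added for 5 days. The cells therefore share 1 route of differentiation and serum exposure, and the labels name neither the ES line nor separate cultures. The p-values rest on the spread between the 3 arrays alone, with each gene's variance drawn toward a common value over all genes tested. Part or all of the spread between arrays may be technical.

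Fatty acids are poorly soluble in water, and binding proteins carry them through the cytosol. Acyl-CoA synthetases then activate them to acyl-CoA, which can be built into membranes and droplets or sent to the mitochondria. The carnitine shuttle takes long chains across the mitochondrial membranes, and acyl-CoA dehydrogenases start each round of beta-oxidation in the matrix. In the brain this oxidation is placed mainly in astrocytes, while Fabp7 is also a classical product of radial glia.

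With no second group, each gene was set against a background limit. The limit of an array was the 95th percentile of log2 signal over 78 olfactory, vomeronasal, trace-amine and taste receptor genes, and it was 3.99, 4.10 and 4.07 log2 units on replicates 1, 2 and 3. A gene is called above background where its log2 signal exceeded that limit in limma (a one-sided test of 1 mean, with p adjusted by the Benjamini-Hochberg method over 18116 genes and below 0.05). Probe sets differ in brightness, so a level here is read against the limit and not against another gene's level.

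The label of the cells was checked against marker genes. Over all genes tested, 58.3% were above background. All 9 astrocyte markers were above background, with a summed signal from 17419 to 21875 over the arrays. So were all 5 neural precursor markers, with a summed signal from 14883 to 17641. Vim alone, named after its values were seen, gave 11119, 11255 and 11792 of the precursor sum on replicates 1, 2 and 3. Of the markers of other cell types, those that passed were 3 of 6 for neurons, 1 of 4 for oligodendrocytes, 1 of 5 for microglia, 1 of 5 for mesenchymal cells, 2 of 6 for cardiac and skeletal muscle and 1 of 4 for hepatocytes. The mesenchymal marker that passed was Acta2, on 1 of its 3 probe sets, named after its values were seen. It read 828, 1072 and 844 on replicates 1, 2 and 3, of a summed signal of that list from 852 to 1111. No adipocyte, endothelial or pluripotency marker passed in limma (0 of 4 in each list, and also 0 in each at an unadjusted p below 0.05). In such bulk samples, fewer cells of a type and less RNA per cell cannot be told apart. Over all probe sets the arrays had median signals between 19.4 and 23.3. Genes above background lay, in the median, at -0.18, 0.02 and 0.16 log2 units from their own mean on these arrays.

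All 10 genes were above background, where 58.3% of all genes tested were. Their median distance from the limit was 5.80 log2 units, against 1.76 over all genes tested. Of these, 9 lay at least 4.17 log2 units above the limit, and Fabp3 lay 0.46 above it. The call of Fabp3 was lost without replicate 1, at 0.39 log2 units (limma adjusted p = 0.119), and without replicate 2, at 0.48 (limma adjusted p = 0.135), so that 9 of 10 genes passed in either case.

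**Figure D1:**
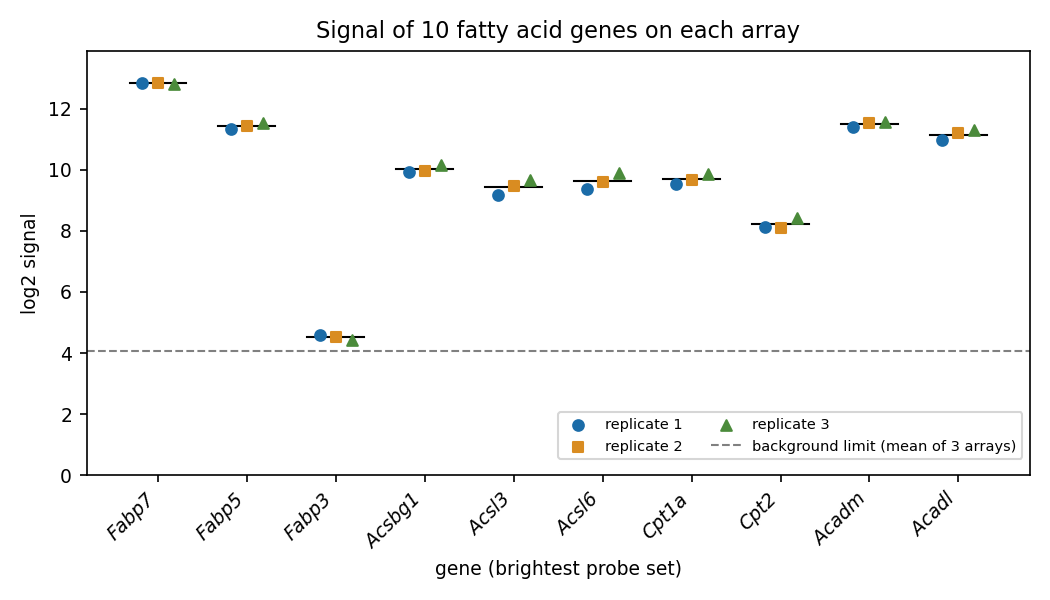
Log2 signal of the 10 genes (vertical axis) on each of 3 arrays of ES-derived astrocytes, for the brightest probe set of each gene. Points are single arrays, black bars are means over 3 arrays, and the dashed line is the mean background limit of 4.05. Fabp3, at a mean of 4.51, is the gene that lies just above the line.

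The fatty acid binding proteins split between a pair with strong signal and one at the edge of detection. Fabp7, which encodes brain lipid-binding protein, a carrier of long polyunsaturated fatty acids in radial glia and astrocytes, had signals of 7298, 7412 and 7170.3 on replicates 1, 2 and 3. The arrays were nearly level, with a highest over lowest ratio of 1.03. Its mean was 12.83 ± 0.024 log2 units (SD, n = 3), 8.78 above the limit (SE 0.12, limma adjusted p = 3.85e-05). Fabp5, the epidermal type, which can hand fatty acids to the nuclear receptor PPAR delta, had signals of 2581, 2746 and 2967 and a mean of 11.43 ± 0.10 log2 units (SD, n = 3). Its second probe set, 1416022_at, read 1186, 1279 and 994 and was also above background. Replicate 3 was the highest array on the first Fabp5 probe set and the lowest on the second. Processed copies of Fabp5 exist in the mouse genome, and probes may be shared with them.

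Fabp3, the heart type, had signals of 24.3, 23.0 and 21.4 on replicates 1, 2 and 3, each above that array's limit of 15.9, 17.1 and 16.8. The margin was narrow on every array and narrowest on replicate 3. Its mean was 4.51 ± 0.092 log2 units (SD, n = 3; limma adjusted p = 0.0267). The probe set behind this value was 1444844_at. The other, 1416023_at, which the annotation ties to the RefSeq transcript of Fabp3, read 15.9, 6.48 and 8.32 and was not above background (limma adjusted p = 1). Of 270 genes within 0.1 log2 units of Fabp3's distance from the limit, 81 (30.0%) were called. Among muscle markers, those above background were Acta1 and Mb, while Ckm, Myh6, Tnnt2 and Tnni3 were not, all of them named after their values were seen. The summed signal of the 6 muscle markers ran from 142 to 205 over the arrays, and their part in the Fabp3 signal was not tested.

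The sequences before the start sites of Fabp7 and Fabp3 are shown for 1 gene far above the limit, Fabp7, and 1 at its edge, Fabp3. They are the 250 bases before the RefSeq start on GRCm38.p6, chr10:57784673-57784922 (plus strand) for Fabp7 and chr4:130308488-130308737 (plus strand) for Fabp3. Capitals mark matches, on either strand, to CCAAT, to the GC box GGGCGG, to the TATA box TATAAA and to the nuclear receptor element AGGTCA.
Fabp7: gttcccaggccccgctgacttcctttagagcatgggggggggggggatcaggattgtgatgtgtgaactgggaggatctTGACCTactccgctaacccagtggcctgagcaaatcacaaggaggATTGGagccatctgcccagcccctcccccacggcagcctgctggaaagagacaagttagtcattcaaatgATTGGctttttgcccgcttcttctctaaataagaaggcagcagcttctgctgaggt
Fabp3: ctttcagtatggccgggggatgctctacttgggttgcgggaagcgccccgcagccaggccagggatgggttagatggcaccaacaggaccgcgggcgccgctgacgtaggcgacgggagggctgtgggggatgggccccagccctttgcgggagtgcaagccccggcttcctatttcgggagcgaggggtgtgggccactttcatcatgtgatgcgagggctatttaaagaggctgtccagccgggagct
Fabp7 had 2 CCAAT matches and 1 AGGTCA match, and Fabp3 had no match to any of these letters. Of 32851 promoters of the same length, 33.85% held CCAAT, 32.7% GGGCGG, 12.4% TATAAA and 14.02% AGGTCA. Such a match describes the sequence and is not a measured binding site. A link between these sequences and the signals of Fabp7 and Fabp3 was not tested. Of the 10 genes 9 matched a RefSeq entry, all but Fabp5.

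Of 9 measured relatives of these binding protein genes, 1 (11.1%) was above background, against 58.3% of all genes tested. Fabp1, Fabp4 and Fabp2, the liver, adipocyte and intestinal types, had means of 2.02 ± 1.05, 1.67 ± 1.68 and 0.38 ± 0.96 log2 units (SD, n = 3) and did not pass. The member that passed was Crabp1, a retinoic acid binding protein gene and not a fatty acid carrier, at 5.57 ± 0.22 (limma adjusted p = 0.00134), and it was named after its value was seen.

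The 3 synthetase genes were all above background. Acsbg1, of the bubblegum family, which activates long and very long chains, had signals of 986, 992 and 1139.7 on replicates 1, 2 and 3. Its only probe set had a mean of 10.02 ± 0.12 log2 units (SD, n = 3), 5.97 above the limit (SE 0.13, limma adjusted p = 3.85e-05). Acsl3, a synthetase of the endoplasmic reticulum and lipid droplets, had signals of 581, 704 and 812. Replicate 1 was the lowest array and replicate 3 the highest, with a ratio of 1.396 between them. Acsl3 was above background on all 3 of its probe sets, whose means were 9.44, 7.59 and 6.79 log2 units. The brightest, 1452771_s_at, is of a kind that can bind several transcripts, and without it Acsl3 lay 3.53 log2 units above the limit.

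Acsl6, a synthetase tied in mouse brain to the incorporation of docosahexaenoic acid into phospholipids, had signals of 662, 774 and 955 on replicates 1, 2 and 3. Its highest over lowest ratio of 1.44 was the widest among the 10 genes. The mean was 9.62 ± 0.27 log2 units (SD, n = 3), 5.57 above the limit (SE 0.16, limma adjusted p = 4.21e-05), and the second probe set, 1437031_at, was above background as well at 6.95 ± 0.15.

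Other synthetases were above background in 4 of 11 measured cases (36.4%), against 58.3% of all genes tested. Acsl4, which prefers arachidonic acid, was at 6.18 ± 0.19 log2 units (SD, n = 3; limma adjusted p = 0.000239), on 1 of its 3 probe sets. With the median of its probe sets Acsl4 lay at -0.15 log2 units from the limit. Acsl5, a relative best known from the intestine and liver, and Acsbg2, the second bubblegum gene, were not above background, with means of 2.98 ± 1.39 and 1.53 ± 1.26. The rest that passed were Acsf3 at 6.22 ± 0.37, which acts on malonate in mitochondria, and the acetyl-CoA synthetase genes Acss1 at 6.39 ± 0.52 and Acss2 at 7.67 ± 0.41, all named after their values were seen. This list's count was 2 when each gene took the median of its probe sets. Acsl1, Acss3 and Acsm4 were not analysed here.

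Both carnitine palmitoyltransferase genes were above background. Cpt1a, the malonyl-CoA-sensitive enzyme of the outer mitochondrial membrane and a main control point of long-chain oxidation, had signals of 749, 807 and 934 on replicates 1, 2 and 3. Its mean was 9.69 ± 0.16 log2 units (SD, n = 3), 5.64 above the limit (SE 0.13, limma adjusted p = 3.88e-05). The other probe sets of Cpt1a, 1434866_x_at and 1438156_x_at, were also above background, at 7.28 ± 0.74 and 6.46 ± 0.56. They varied more between arrays than the first, and 1434866_x_at read 92.1, 158 and 256 on replicates 1, 2 and 3.

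Cpt2, which turns acylcarnitine back into acyl-CoA on the inner membrane, had signals of 282, 275 and 342. These gave a mean of 8.22 ± 0.17 log2 units (SD, n = 3), 4.17 above the limit (SE 0.14, limma adjusted p = 5.31e-05). Its second probe set, 1447820_x_at, read 18.3, 18.3 and 16.9, just over the limit on each array, and did not pass (limma adjusted p = 0.458).

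Acadm and Acadl, whose enzymes catalyse the first step of beta-oxidation, were both above background. Acadm, the medium-chain dehydrogenase, had signals of 2726, 2937 and 3002 on replicates 1, 2 and 3 and a mean of 11.49 ± 0.073 log2 units (SD, n = 3) on its only probe set. This was 7.44 above the limit (SE 0.12, limma adjusted p = 3.85e-05). Acadl, the long-chain dehydrogenase, had signals of 2004.5, 2374 and 2501 and a mean of 11.16 ± 0.17 (SD, n = 3), 7.10 above the limit (SE 0.13, limma adjusted p = 3.85e-05). Its probe sets disagreed. The second, 1448988_at, read 11.7, 14.6 and 13.1, was below the limit on every array and was not above background (limma adjusted p = 1).

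Promoter sequence is shown for Cpt1a and Acadm, which mark the entry into mitochondria and the first oxidation step and are textbook targets of PPAR receptors. The windows are chr19:3323051-3323300 (plus strand) and chr3:153944644-153944893 (minus strand) on GRCm38.p6, from RefSeq, with capitals as for Fabp7.
Cpt1a: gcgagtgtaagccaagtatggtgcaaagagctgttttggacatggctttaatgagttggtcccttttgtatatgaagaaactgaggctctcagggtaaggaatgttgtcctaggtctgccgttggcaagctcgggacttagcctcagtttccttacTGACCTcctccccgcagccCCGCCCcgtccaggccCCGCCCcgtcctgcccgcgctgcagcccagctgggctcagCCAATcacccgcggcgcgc
Acadm: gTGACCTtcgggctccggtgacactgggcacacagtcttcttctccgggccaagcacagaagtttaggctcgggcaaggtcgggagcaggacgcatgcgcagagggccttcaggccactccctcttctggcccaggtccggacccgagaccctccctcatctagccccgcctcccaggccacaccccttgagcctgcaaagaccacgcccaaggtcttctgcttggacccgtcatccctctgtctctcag
Each held 1 AGGTCA match, and Cpt1a also held 1 CCAAT and 2 GGGCGG matches. Cpt2 and Acadl, whose windows are not shown, held no AGGTCA match. AGGTCA was present before Fabp7, Acsl6, Cpt1a and Acadm, which is 4 of the 9 genes with an entry. Counted by window, of which Acsl6 had several, this was 4 of 11, where 14.02% of all promoters held it. A direct repeat of 2 AGGTCA elements spaced by 1 base was in none of the 11 windows of these 9 genes and in 0.0335% of all promoters. Elements within this repeat also count as AGGTCA matches.

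Over every probe set of the 10 genes, 16 of 19 were above background, where 52.3% of 34871 tested were. The 3 that were not belonged to Fabp3, Cpt2 and Acadl, and the other 7 genes passed on all their probe sets. Fabp7, Acsbg1 and Acadm had 1 probe set each, so no second reading was available for them. The Fabp3 probe set 1444844_at passed with a limma adjusted p of 0.0455, and without any one of the replicates the count was 15.

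**Figure D2:**
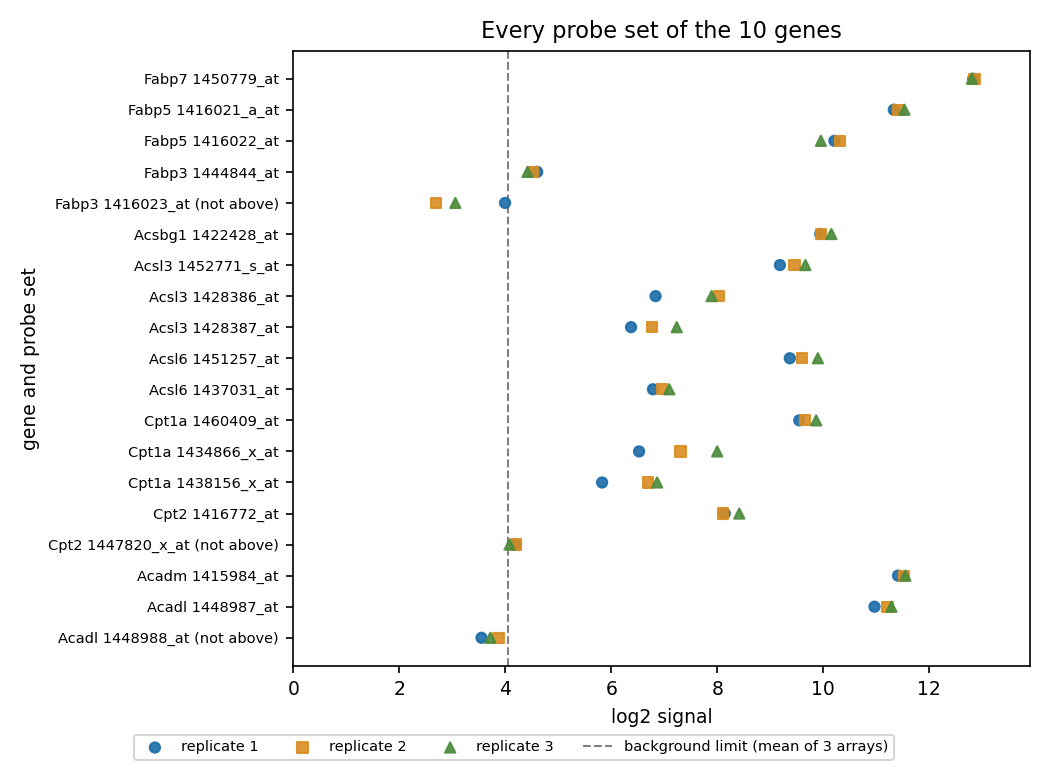
Log2 signal (horizontal axis) of all 19 probe sets of the 10 genes on 3 arrays, with points for single arrays and the mean probe-set limit of 4.05 as a dashed line. The 3 probe sets that did not pass are marked on the vertical axis, and the second Acadl probe set lies left of the line on each array.

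On their main probe sets, the 10 genes differed little between arrays. On the gene's main probe set, the highest array exceeded the lowest by 1.03 to 1.44 times. For 7 of the 10 genes the SD was smaller than the median SD of genes above background whose mean lay within 0.5 log2 units. Fabp7 had an SD of 0.024, against a median of 0.072 over 90 such genes. Fabp3, counted among the 7, had 0.092, against 0.27 over 487 genes. So near the limit the call itself favours a small SD, so the SD of Fabp3 is no separate support. Acsl3 and Acsl6, at 0.24 and 0.27, lay above their medians of 0.21 each, and Acadl, at 0.17, was within rounding of its median. Some other probe sets varied more than the main one and some less. The Acsl3 probe set 1428386_at read 114, 261 and 238 on replicates 1, 2 and 3 (SD 0.65), while 1447820_x_at of Cpt2 had an SD of 0.067.

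Array by array, the 10 genes largely followed the arrays as a whole. Of the 10, 8 were highest on replicate 3, as were 64.3% of genes above background, and 7 were lowest on replicate 1, as were 69.4% of them. With the median deviation of each array removed, Fabp7 deviated from its mean by 0.18, 0.0070 and -0.19 log2 units on replicates 1, 2 and 3. The corresponding deviations of Fabp3 were 0.27, -0.0083 and -0.26, and those of Acsl6 were -0.072, -0.043 and 0.11. Fabp7 was nearly level, so its deviations mostly mirror the removed array medians of -0.18, 0.02 and 0.16. Any level gene shows the same, such as Hadhb at 0.16, -0.0032 and -0.16. On this scale Fabp7 and Fabp3 were low on replicate 3, where Acsl6 was high. A single group of 3 arrays allows no test of such a difference.

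**Figure D3:**
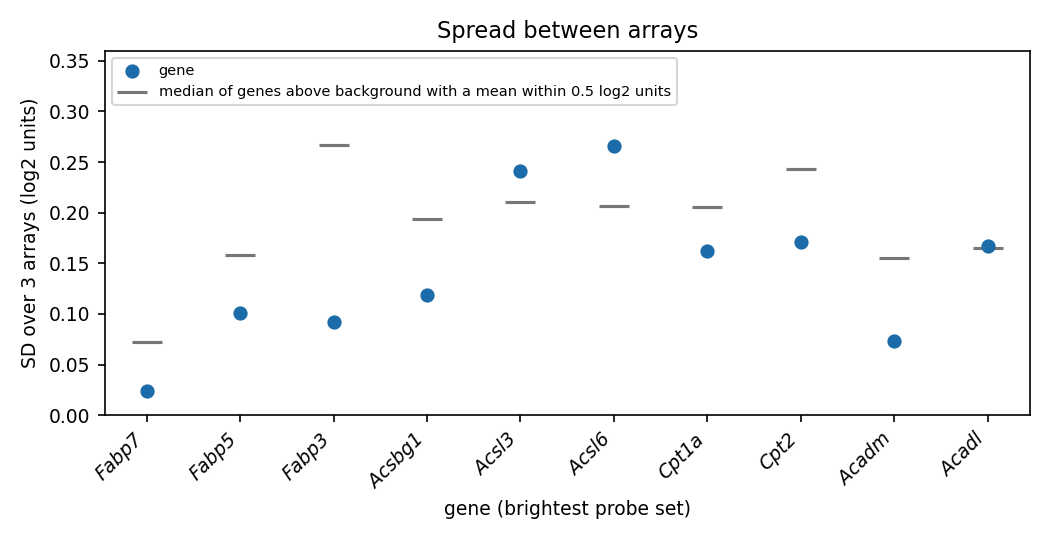
SD of log2 signal over 3 arrays (vertical axis) for each of the 10 genes (points), beside the median SD of genes above background of like level (bars). Acsl3 and Acsl6 lie above their bars, Acadl lies on its bar, and the other 7 genes lie below.

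The steps on either side of these genes were described from lists of pathway genes. Genes for uptake and acyl-CoA binding were above background in 10 of 14 cases (71.4%), not far from the 58.3% of all genes tested. Cd36, a fatty acid translocase, was at 4.52 ± 0.21 log2 units (SD, n = 3; limma adjusted p = 0.0373), close to the limit. Its call was lost without replicate 1, 2 or 3, at distances of 0.45, 0.58 and 0.37, and none of its 3 probe sets passed when probe sets were tested one by one. Slc27a1, a fatty acid transport protein gene, was at 8.01 ± 0.56, and Dbi, the acyl-CoA binding protein gene, was at 13.41 ± 0.060. Acyl-CoA thioesterase genes, which release the fatty acid again, passed in 7 of 11 cases (63.6%), near that share. Acot1, Acot2 and Acot7 were at 10.42 ± 0.10, 8.22 ± 0.35 and 6.75 ± 0.054, and the near-identical Acot1 and Acot2 may share probes.

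All 9 measured genes of the carnitine shuttle list were above background, where 58.3% of all genes tested were. The list is wider than the mitochondrial shuttle, since it also holds Crot, Slc22a5, Slc22a4, Bbox1, Tmlhe and Aldh9a1, named after their values were seen. Slc25a20, the carrier of acylcarnitine across the inner membrane, was at 9.85 ± 0.38 log2 units (SD, n = 3). Cpt1c, the brain form of the outer transferase, was at 9.61 ± 0.21, and Crat, the carnitine acetyltransferase gene, was at 7.66 ± 0.42. Cpt1b, the muscle form, was not analysed here.

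All 20 genes of the mitochondrial beta-oxidation list were above background too, where 58.3% of all genes tested were, and 15 of them passed on every probe set. The list is wider than fatty acid beta-oxidation, since it also holds Acadsb, Pcca, Pccb and Mut, named after their values were seen. Acadvl, the very-long-chain dehydrogenase gene, was at 10.18 ± 0.30 log2 units (SD, n = 3). Hadha and Hadhb, the subunits of the trifunctional protein that completes the round for long chains, were at 10.19 ± 0.26 and 11.06 ± 0.014. The list ran from 5.52 to 11.62 log2 units, and its median distance from the limit was 5.68, against 1.76 over all genes tested.

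Peroxisomal oxidation genes were above background in 12 of 16 measured cases, against 58.3% of all genes tested. Hsd17b4, the D-bifunctional protein gene, was at 10.50 ± 0.27 log2 units (SD, n = 3), and Acox2, a branched-chain oxidase gene, was at 6.31 ± 0.26. Ehhadh, the L-bifunctional protein gene and a strong PPAR alpha target in liver, was at -0.99 ± 1.20 and did not pass. The others that did not were Acaa1b, Abcd2 and Phyh, at 3.57 ± 0.65, 4.38 ± 0.71 and 3.64 ± 0.38, named after their values were seen.

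Ketone body genes were above background in all 6 measured cases, where 58.3% of all genes tested were. Bdh1, Oxct1 and Acat1, which act in ketone body use, were at 7.77 ± 0.18, 10.64 ± 0.20 and 9.54 ± 0.14 log2 units (SD, n = 3).

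Regulators of fatty acid oxidation passed in 15 of 21 cases (71.4%), not far from the 58.3% of all genes tested. Ppara, the receptor that drives oxidation genes in liver, read 19.8, 19.95 and 23.1 on replicates 1, 2 and 3. These signals exceeded the limit on each array, but the test was missed at 4.39 ± 0.12 log2 units (SD, n = 3; limma adjusted p = 0.0590). Ppard, which encodes PPAR delta, had a mean of 6.32 ± 0.15 and passed on 1 of 2 probe sets, and it lay at -0.59 from the limit with the median of its probe sets. Ppargc1a, the coactivator PGC-1 alpha, was at 7.59 ± 0.37 and passed on all 5 of its probe sets. Of the acetyl-CoA carboxylase genes, which make the malonyl-CoA that restrains Cpt1, Acaca passed at 7.43 ± 0.34 and Acacb, at 1.50 ± 0.25, did not. Mlycd, whose enzyme breaks malonyl-CoA down, passed at 5.98 ± 0.13, and these last 3 genes were named after their values were seen.

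**Figure D4:**
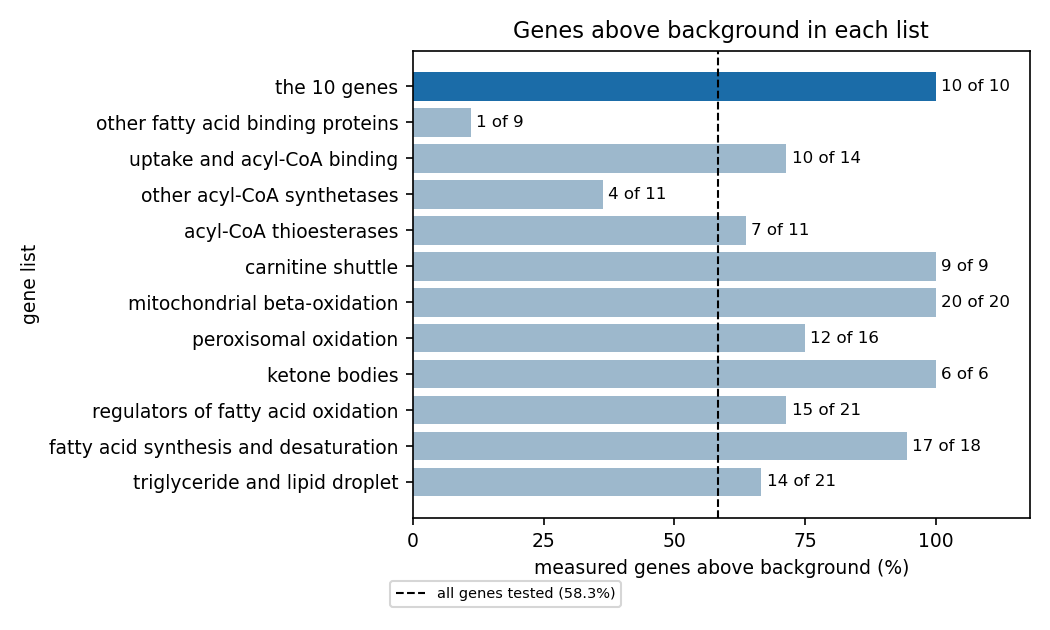
Share of measured genes above background (horizontal axis, %) for the 10 genes and 11 pathway lists, with the counts beside the bars and the 58.3% of all genes tested as a dashed line. Bars of the carnitine shuttle, mitochondrial beta-oxidation and ketone body lists reach 100%, and that of the other fatty acid binding proteins ends at 11.1%.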

How the data were processed

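Total RNA of 3 samples was hybridised to Affymetrix Mouse Genome 430 2.0 arrays, per the labels' protocols. The deposited values are 1 linear intensity per probe set and array for 45101 probe sets, made with GCOS 1.4 per the submitters' processing notes. Its settings and scaling target are not given here. Trimmed means (2% off each end) were 131, 149 and 154, so no common scaling over all probe sets was seen. The platform annotation tied 34958 of them to 1 gene, 932 to several and 9211 to none. Symbols were checked against the GRCm38.p6 gene table, where 0 changed.

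Log2 was taken with no pseudocount. The limma 3.58.1 fit (R 4.3.3) covered all genes, or all probe sets, outside the receptor genes, with log2 signal minus the limit as the value, and adjusted p-values are over the whole fit. The procedure was tested on simulated data. Lists carry counts only, with no list test. The 10 genes and the lists were chosen with earlier results of these data known. Named genes are the 10, the first 3 measured of each list in list order, and those said to be named after their values were seen, muscle markers included. Alternatives were array scaling, pseudocount, limit, variance trend, low-value filter, probe set choice and leaving out each array. The number of arrays limits the precision.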

Additional observations from a re-analysis of the deposited data

How the results depend on the processing

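Of the 10 genes, the 9 other than Fabp3 were above background under all 12 alternative settings, with limma adjusted p up to 0.00117. Their lowest distance from the limit was 2.16 log2 units, for Cpt2 with the median over its probe sets. Fabp3 passed under 7 of 12. It lay 0.087 log2 units above the limit set at the 99th percentile (limma adjusted p = 0.634), 0.46 with an intensity trend in the variance (limma adjusted p = 0.0987) and -0.15 with the median of its probe sets (limma adjusted p = 1), and it ranged from 0.39 to 0.52 when each replicate was left out. The count of the 10 genes was 9 or 10 throughout, and that of all genes tested ran from 9158, with the median of probe sets, to 10900, with the limit at the 90th percentile. Acsl4, Ppard and Cd36 changed side with the median of probe sets, at -0.15, -0.59 and -0.33 log2 units from the limit, and Lipe lost its call there at 0.26. Ppara passed with the limit at the 90th percentile and with low genes left out. Of 156 pathway genes, 147 kept their call and direction with the median of probe sets, and at least 151 of those available kept theirs under the other settings except the low-value filter, with 134 of 135. Levels within about 0.5 log2 units of the limit, such as those of Fabp3, Cd36 and Ppara, are at the edge of what 3 arrays resolve. No paired analysis was possible because the samples form 1 group.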

Other observations

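Most genes that make fatty acids were above background. Of 18 genes for synthesis, elongation and desaturation 17 passed, where 58.3% of all genes tested did. Fasn, the fatty acid synthase gene, had signals of 582, 722 and 873 on replicates 1, 2 and 3, with a mean of 9.48 ± 0.29 log2 units (SD, n = 3). The desaturase genes Scd1 and Scd2 were at 10.37 ± 0.24 and 12.99 ± 0.14. The gene that did not pass was Elovl2, an elongase of polyunsaturated fatty acids, at 4.09 ± 0.26 (limma adjusted p = 0.670), named after its value was seen.

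Triglyceride and lipid droplet genes passed in 14 of 21 measured cases (66.7%), near the 58.3% of all genes tested. Plin2, which coats lipid droplets, read 835, 870 and 906 on replicates 1, 2 and 3 and was at 9.76 ± 0.059 log2 units (SD, n = 3). The lipase genes Pnpla2 and Lipe were at 8.17 ± 0.30 and 6.66 ± 0.031, on 1 of 2 probe sets each. The 7 genes that were not above background were Lpl, Plin3, Plin4, Plin5, Agpat2, Cidea and Cidec, named after their values were seen, with means from 1.48 to 4.04.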
